A study of Mus musculus with 6 samples.

Results

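The Reg (regenerating) family comprises small secreted proteins with a C-type lectin domain, and 6 of its genes were followed here in whole mouse pancreas, namely Reg1, Reg2, Reg3a, Reg3b, Reg3d and Reg3g. They were chosen by name, and each matched 1 of the 23337 gene symbols in the count files. All libraries came from mice of the strain NMRI at postnatal day 7. The 3 control libraries carried 1 Cre allele at the Ptf1a locus (Ptf1a cre/+), and the 3 mutant libraries carried the same allele together with the transgene CAG-loxP-STOP-loxP-Prox1-LacZ, from which Cre removes a stop cassette so that the CAG promoter drives Prox1 and LacZ in cells of the Ptf1a lineage. Both groups therefore share the Cre insertion at Ptf1a, and no animal without it was analysed here. The design text calls the control samples pools and the mutant samples individual pancreata, while the extraction text speaks of individual organs, so pooling and genotype cannot be told apart. The p-values measure the spread between these 6 samples.

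Reg1 and Reg2 encode lithostathines, proteins that acinar cells release into pancreatic juice and that were first studied in regenerating islets. The Reg3 proteins are best known from pancreatitis, in which acinar cells make large amounts of them, and from the gut, where Reg3b and Reg3g act on bacteria at the epithelial surface. Cytokines of the interleukin-6 and interleukin-22 families induce several Reg genes through the transcription factor STAT3, and Extl3 has been proposed as a receptor for Reg proteins.

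All 6 genes lie in 1 block of chromosome 6 of the mouse assembly GRCm38 (GENCODE M21), between positions 78370657 and 78468872, a span of 98.2 kb in which that annotation lists no other gene. Reg3b (78370657 to 78373466), Reg3a (78380709 to 78383827), Reg2 (78395623 to 78408106) and Reg1 (78422711 to 78428667) are on the plus strand, and Reg3d (78375874 to 78378865) and Reg3g (78466269 to 78468872) are on the minus strand. None of the 6 overlaps another annotated gene. The longest open reading frames of Reg1 and Reg2 were identical at 78.7% of aligned positions, and those of Reg3b and Reg3g at 75.9%, the closest pair among the Reg3 genes. Reg3d was the most distant Reg3 gene, with 66.2% to 67.2% identity to the other Reg3 genes, and Reg1 shared 56.6% to 59.9% with the Reg3 genes. No stretch of 50 bases in the transcripts of 1 member occurred in another member, and the longest identical run between any 2 reading frames was 35 bases (Reg3b and Reg3g). Of the 50-base stretches, 3.65% of those of Reg1 and 4.34% of those of Reg2 occurred in transcripts of genes outside the family. For Reg3a, Reg3b, Reg3d and Reg3g this share was 0. The read length is not given in the sources used here.

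The sequences before the start sites of the 3 genes that fell and of the 1 gene that rose are shown because close paralogs moved differently. They were matched by symbol to RefSeq (GRCm38.p6), which holds all 6 members, and each is the 250 bases upstream of the start site, 5′ to 3′ in the direction of the gene. They are reference sequences and were not read from these mice. Reg1 is at chr6:78425733-78425982 (plus strand), Reg2 at chr6:78404905-78405154 (plus strand), Reg3d at chr6:78378866-78379115 (minus strand) and Reg3b at chr6:78370635-78370884 (plus strand). The RefSeq start sites of Reg1, Reg2 and Reg3b differ from the GENCODE gene starts given above. The windows of Reg1 and Reg2 lie inside those gene spans, and that of Reg3b overlaps its gene start. Capitals mark matches to 3 motifs on either strand, TATAAA, the E-box CACCTG, and CANCTGNNNNNNTTCCC, in which an E-box is followed by TTCCC as in sites of the acinar PTF1 complex of Ptf1a.
Reg1: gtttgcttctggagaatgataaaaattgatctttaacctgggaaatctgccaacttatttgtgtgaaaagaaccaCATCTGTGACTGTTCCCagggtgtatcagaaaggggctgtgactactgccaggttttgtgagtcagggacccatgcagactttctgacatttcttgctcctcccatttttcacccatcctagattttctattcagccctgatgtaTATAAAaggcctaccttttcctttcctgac
Reg2: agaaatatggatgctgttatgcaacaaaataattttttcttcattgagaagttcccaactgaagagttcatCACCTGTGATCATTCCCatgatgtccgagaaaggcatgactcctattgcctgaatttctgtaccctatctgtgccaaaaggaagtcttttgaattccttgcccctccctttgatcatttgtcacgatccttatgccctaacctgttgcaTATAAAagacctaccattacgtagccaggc
Reg3d: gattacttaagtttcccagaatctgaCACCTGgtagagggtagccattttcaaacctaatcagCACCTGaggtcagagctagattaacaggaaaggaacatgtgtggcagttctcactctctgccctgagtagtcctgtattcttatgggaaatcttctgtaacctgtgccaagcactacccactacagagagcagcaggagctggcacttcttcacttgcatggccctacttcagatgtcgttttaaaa
Reg3b: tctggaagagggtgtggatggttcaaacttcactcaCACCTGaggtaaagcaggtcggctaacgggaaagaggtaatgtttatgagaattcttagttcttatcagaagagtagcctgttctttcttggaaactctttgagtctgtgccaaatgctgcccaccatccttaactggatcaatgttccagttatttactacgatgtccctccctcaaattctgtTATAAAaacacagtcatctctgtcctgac

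Reg1 and Reg2 both held CANCTGNNNNNNTTCCC, starting at position -175 in Reg1 and -179 in Reg2, where -1 is the base before the start site, and the other 4 members did not. In Reg2 the E-box of that match is itself a CACCTG, so these motifs overlap. The long motif was searched because it was seen in these sequences, and it occurred in 30 of 32851 RefSeq promoter windows of the same length (0.0913%). Of the 30 genes that hold it, 14 were tested for expression. Reg1 and Reg2 were lower in mutants, and the other 12 did not pass the test, with log2 fold changes between -0.27 and 1.31. CACCTG was found once in Reg2, Reg3a and Reg3b and at 2 places in Reg3d, against 17.2% of all windows, and TATAAA in Reg1, Reg2, Reg3b and Reg3g, against 12.4%. The STAT palindrome TTCNNNGAA was found in Reg3b and Reg3d, a gene that rose and a gene that fell, against 7.02% of all windows. These matches describe letters in the windows and not bound sites.

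Levels are given in CPM, the counts of a gene per unit of library size, after scaling by TMM, a method that sets the libraries on a common scale. Total counts lay between 7304727 and 10773223 per library, so that 1 CPM stood for 6.66 to 10.5 counts. Prox1 measured 9.25 ± 1.49 CPM (SD, n = 3) among controls against 29.2 ± 3.24 CPM for mutants (edgeR adjusted p = 0.000239), in the direction of the genotype labels. The 18 acinar markers examined added up to 410002 to 458395 CPM per control and 348235 to 408179 CPM per mutant. Control 1 stood apart from the other controls. A chi-square statistic per degree of freedom was computed for pairs of libraries, over genes with at least 20 counts summed over the pair. It was 20.5 and 18.9 between control 1 and controls 2 and 3 and 6.14 between controls 2 and 3. Xist, a gene active in female cells, was at 1067 CPM in control 1 and at most 0.441 CPM in any other library.

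Summed Reg transcripts were lower in every mutant than in any control, and the members moved in different directions. Of the 6 members, all of which passed the filter on low counts, Reg1, Reg2 and Reg3d fell, Reg3b rose, and Reg3a and Reg3g did not pass the test at an edgeR adjusted p under 0.05. Among all 13017 genes tested 2.06% were called in either direction, 1.51% lower and 0.545% higher. The median log2 fold change was -0.96 over the 6 members and 0.00 over all genes tested. Control and mutant CPM were fully separated in 5 of the 6 members, as they were in 19.0% of all genes tested. With library totals alone as the scaling, 59.4% of the called genes were higher in place of 26.5%, the median of all genes moved to 0.17, and the same direction was called for each of Reg1, Reg2, Reg3d and Reg3b. In whole tissue, fewer cells of a type and less RNA per cell cannot be told apart.

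**Figure D1:**
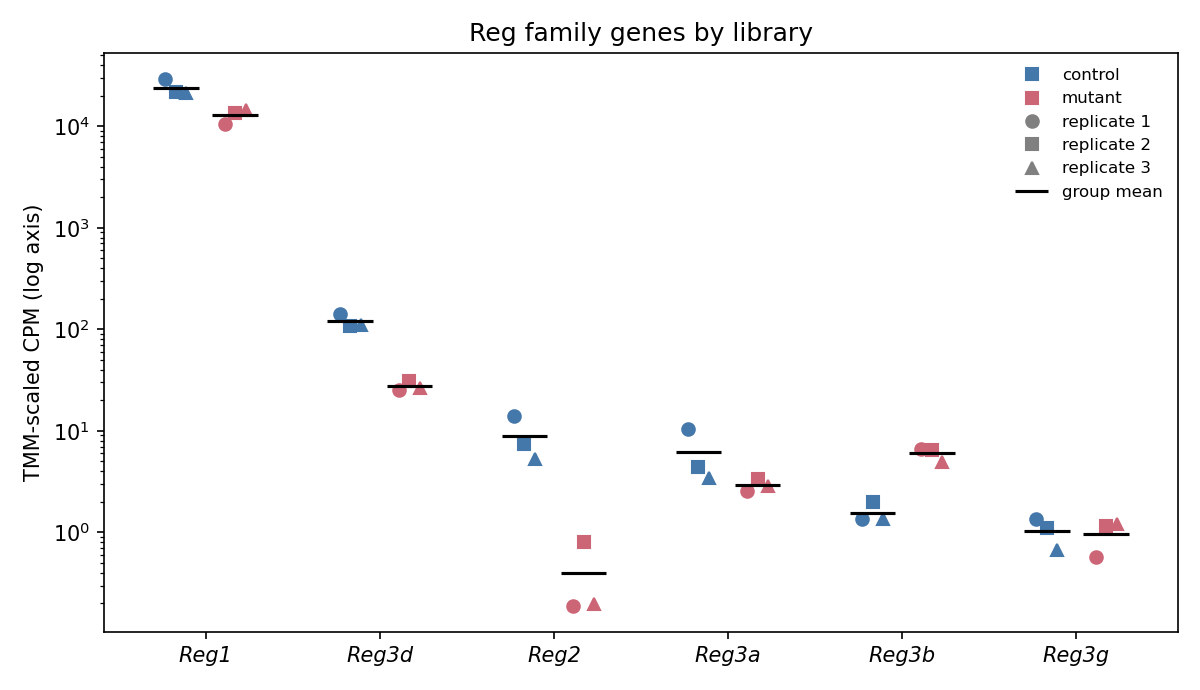
TMM-scaled CPM of the 6 Reg genes (log axis) in each library, with controls in blue, mutants in red, a marker shape for each replicate number and a line at each group mean. Reg1 lies between 10580 and 28910 CPM while Reg3g lies near 1 CPM, and control 1 is the highest control for Reg1, Reg3d, Reg2, Reg3a and Reg3g.

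Summed over the 6 genes, Reg transcripts reached 29078, 22035 and 21137 CPM in the 3 controls, and in mutants 1 to 3 the sums were 10616, 13503 and 14576 CPM. Every control was thus above every mutant, with means of 24083 ± 4349 CPM (SD, n = 3) and 12898 ± 2048 CPM, 1.87-fold lower in mutants. The two-sided exact permutation test on the log2 sums returned p = 0.1, below which a design of 3 against 3 libraries cannot go. As a share of all counts, Reg genes took 2.65%, 2.10% and 2.04% in controls and 1.12%, 1.51% and 1.47% in mutants. This sum was nearly all Reg1, which held between 99.4% and 99.8% of Reg counts in every library. Without Reg1, the other 5 members summed to 169, 121 and 122 CPM in the 3 controls, whereas the mutants had 35.4, 42.7 and 35.7 CPM, so the minor members together were 3.62-fold lower.

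Among the lithostathines, Reg1 measured 28909.7, 21914 and 21015 CPM in controls 1 to 3, and the 3 mutants were at 10580.4, 13460 and 14540.5 CPM. The groups did not overlap, and the mutants were 1.86-fold lower (-0.90 ± 0.18 as log2 fold change with SE, edgeR adjusted p = 0.0306). This call lay near the threshold. It was lost without control 1, control 2, control 3, mutant 1 or mutant 3, with edgeR adjusted p between 0.0543 and 0.142 and log2 fold changes between -0.996 and -0.739.

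Reg2 fell most. It was at 14.1, 7.39 and 5.28 CPM in controls, from 94, 67 and 55 counts, and at 0.190, 0.811 and 0.199 CPM in mutants, from 2, 7 and 2 counts. Every control thus lay above every mutant. Mutants 1 and 3 were under the 3 counts taken here as the limit of detection, so their CPM, their ratio to Reg1 and the place of Reg2 in the order of members rest on counts below that limit. The summed counts, 216 in controls and 11 in mutants, gave a 21.9-fold lower level in mutants, with an exact 95% interval of 12.01 to 44.6 that covers counting error only. The fitted log2 fold change was -4.48 ± 0.55 (SE, edgeR adjusted p = 0.00216), and only 8 of the 13017 genes tested had a lower one. The precise size rests on few counts, and it lay between -5.38 without mutant 2 and -4.01 without control 1. Relative to its closest paralog, the counts of Reg2 amounted to 0.0488%, 0.0337% and 0.0251% of those of Reg1 in controls and 0.00180%, 0.00602% and 0.00137% in mutants. The highest of these mutant shares, from 7 counts of Reg2, was below the lowest control share.

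Within the Reg3 group, Reg3d, also known as islet neogenesis-associated protein-related protein, was the most abundant gene and fell. Controls were at 141, 106 and 111 CPM, and mutants at 25.4, 30.9 and 26.5 CPM from 266 or 267 counts in each mutant library. The spread within each group was small against the gap between them. Reg3d was 4.33-fold lower in mutants (-2.11 ± 0.14 on the log2 scale with its SE, edgeR adjusted p = 3.59e-05), and all 13 alternatives gave the call, with values between -2.19 and -1.94.

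Reg3b, the pancreatitis-associated protein, rose from a low level. It was at 1.35, 1.99 and 1.34 CPM in controls, from 9, 18 and 14 counts, and at 6.66, 6.48 and 4.89 CPM in mutants, from 70, 56 and 49 counts. The lowest mutant was thus above the highest control. Reg3b was 3.81-fold higher in mutants (log2 fold change 1.93 ± 0.27 SE, edgeR adjusted p = 0.00453), and 24 of the 13017 genes tested had a larger log2 fold change. All 13 alternatives gave the call, with values between 1.80 and 2.15 and edgeR adjusted p up to 0.0343. The rise did not bring Reg3b to the level of Reg3d, and its CPM in mutants remained below 7.

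For Reg3a the controls were at 10.5, 4.41 and 3.46 CPM, whereas the mutants were at 2.57, 3.36 and 2.89 CPM. Its groups did not overlap, but controls 2 and 3 lay close to the mutants and control 1 stood far above them. The log2 fold change of -1.02 ± 0.40 (SE) missed the threshold (edgeR adjusted p = 0.309), and it was -0.42 without control 1. Reg3g, an antibacterial lectin of the gut, stayed near 1 CPM, with 1.35, 1.10 and 0.672 CPM in controls, then 0.571, 1.16 and 1.20 CPM among mutants, from 6 to 12 counts per library. The groups overlapped, and the log2 fold change of -0.07 ± 0.44 (SE, edgeR adjusted p = 0.976) turned to 0.09 with library totals alone. Its summed counts were 26 in controls and 28 in mutants, a mutant to control ratio of 0.965 with an exact 95% counting interval of 0.545 to 1.71. That interval leaves out variation between libraries, and the smallest change of Reg3g that the test could detect was not determined.

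**Figure D2:**
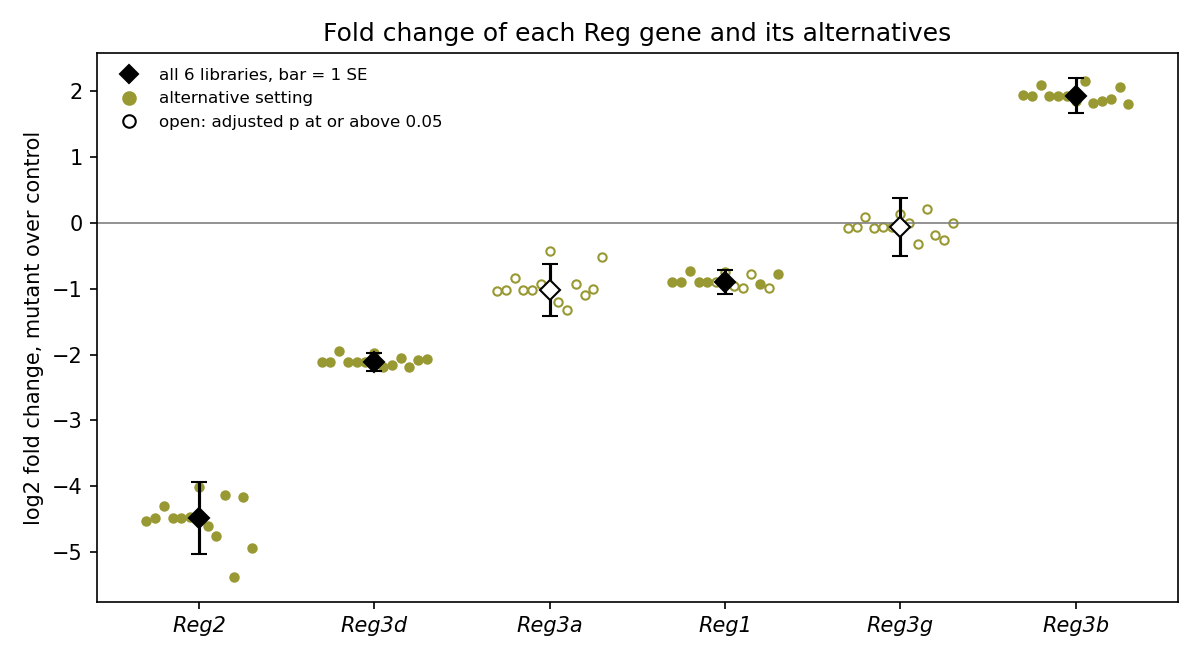
Log2 fold change of mutants over controls for each Reg gene, with the estimate from all 6 libraries as a diamond (bar, 1 SE) and the 13 alternative settings as circles, open where the adjusted p was at or above 0.05. Reg2, Reg3d and Reg3b stay filled throughout, Reg1 has filled and open circles near -0.90, and Reg3g crosses 0.

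Reg4, the remaining mouse Reg gene, lies on chromosome 3 outside this block and was not a member of the set. It had 0 counts in each control library and 1, 1 and 2 counts in mutants, under that limit of 3 counts, and no fold is given. The nearest genes of the count files on either side lay far from the block, Ctnna2 at 390958 bases and Gm20362 at 563172 bases. Among the flanking genes, Ctnna2 and Lrrtm1 on one side and Lrrtm4 on the other were at mean levels of at most 0.754 CPM in either group and too low to be tested. The flanking genes 6330415B21Rik, Gm20362 and Gm20594 were listed at 0 in all 6 libraries.

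To compare levels between members, CPM was divided by the length of each gene's longest coding transcript in kilobases. In controls the order was Reg1 (26489 ± 4781 CPM per kb, SD, n = 3), Reg3d (153 ± 24.2), Reg2 (12.8 ± 6.60), Reg3a (7.42 ± 4.63), Reg3b (1.99 ± 0.471) and Reg3g (1.35 ± 0.446). The ranges of mean ± SD overlapped for Reg2 and Reg3a, although Reg2 was the higher of the pair in each control library. They also overlapped for Reg3b and Reg3g, which had 9 counts each in control 1, while Reg3b was higher in controls 2 and 3. In mutants Reg1 (14226 ± 2264 CPM per kb) and Reg3d (35.3 ± 3.73) kept the first places, followed by Reg3b (7.67 ± 1.25), Reg3a (3.56 ± 0.481), Reg3g (1.26 ± 0.455) and Reg2 (0.573 ± 0.509). Reg2 moved from the third place to the last and Reg3b from the fifth to the third. Reg2 was below Reg3g in each mutant library, at few counts for both.

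The question of whether paralogs moved apart was also put to ratios within each library, which do not depend on the scaling between libraries. In counts, Reg3b amounted to 0.00956, 0.0187 and 0.0121 of Reg3d in controls 1 to 3 and to 0.262, 0.210 and 0.184 of Reg3d in mutants 1 to 3. Every mutant ratio was above every control ratio, and the mean was 16.3-fold higher. Among all counts of the 4 Reg3 genes, Reg3d made up 91.4% to 95.3% in controls and 72.2% to 74.7% in mutants, while Reg3b went from 0.875% to 1.74% in controls to 13.8% to 18.9% in mutants. The Reg3 genes together fell from 128 ± 22.7 CPM (SD, n = 3) to 37.5 ± 3.80 CPM.

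**Figure D3:**
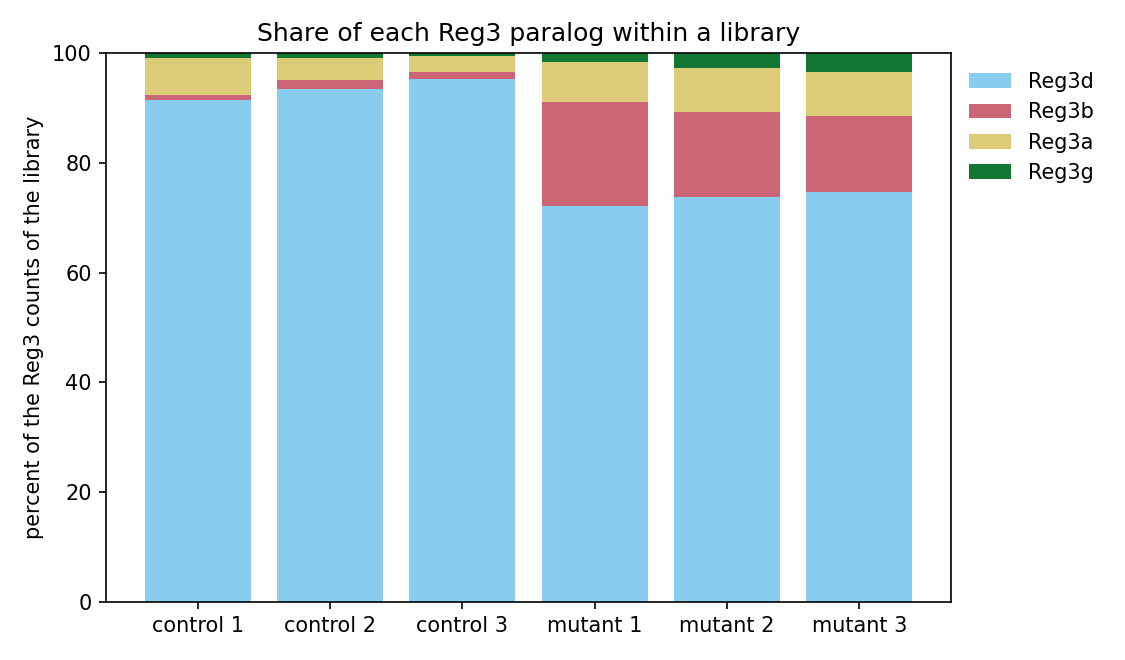
Percent of the summed Reg3 counts of each library that came from Reg3d, Reg3b, Reg3a and Reg3g. Reg3d is above 91% in each control and below 75% in each mutant, and Reg3b takes 13.8% to 18.9% in mutants, of a Reg3 sum that is lower there.

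Of the 15 pairs of members, 13 had log2 ratios that did not overlap between controls and mutants, against 19.7% of all pairs of tested genes. The 15 pairs are not independent, since they come from 6 genes, of which 5 did not overlap singly. Each of these 13 reached p = 0.1 by the two-sided exact permutation test, the lowest value this design permits, and an adjusted p of 0.115 over the 15 pairs. The largest shift was that of Reg3b relative to Reg2, with a mean log2 ratio of Reg2 to Reg3b of 2.37 in controls and -4.01 in mutants. The pairs of closest sequence were among the 13. The log2 ratio of Reg1 to Reg2 went from 11.5, as a mean over controls, to 15.1 in mutants, and that of Reg3b to Reg3g from 0.59 to 2.62. For Reg1 and Reg3a the ratios overlapped, with mean log2 ratios of 12.08 and 12.07, and the ratios of Reg3a to Reg3g overlapped between the groups.

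**Figure D4:**
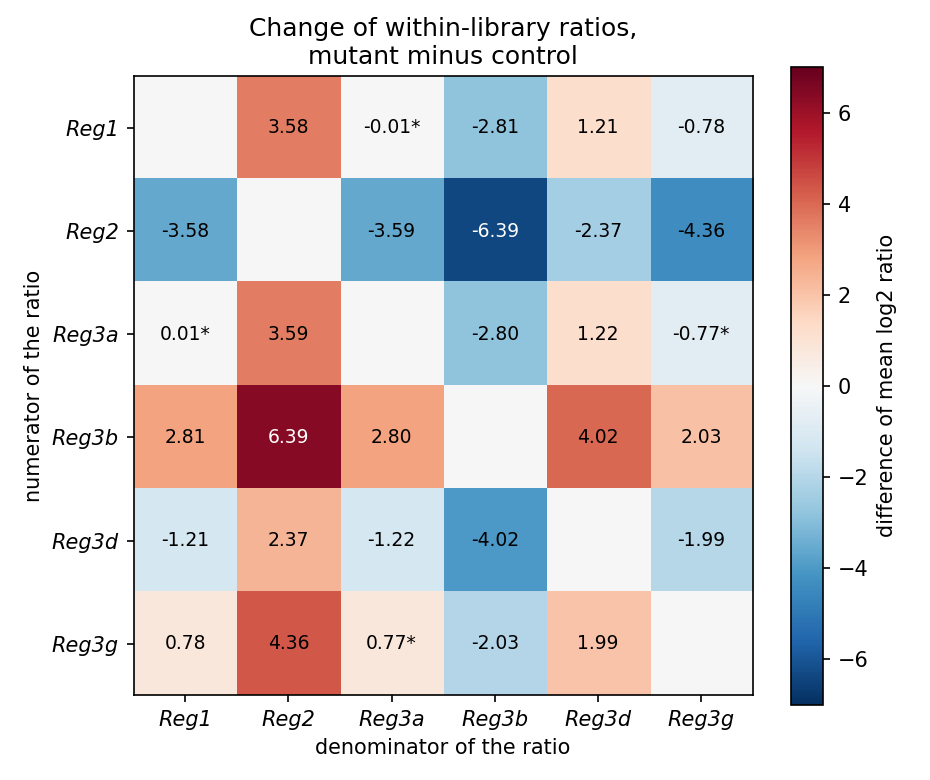
Difference between mutants and controls in the mean log2 ratio of the row gene to the column gene within a library, with an asterisk where the single-library ratios of the groups overlap. The row of Reg3b is positive against each other member, the row of Reg2 is negative against each, and Reg1 against Reg3a is at -0.01.

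For each member, the 3 genes with the most similar course over the 6 libraries were sought among 10030 other genes with a mean of at least 5 CPM, by the root mean square difference of log2 CPM centred on the control mean. These courses share the libraries and the scaling and are a description. Closest to Reg1 were Ntn1, which encodes the guidance protein netrin-1 (difference 0.07), Clstn1, which encodes calsyntenin-1 (0.09), and Entpd1, an ectonucleotidase (0.14), each lower in mutants with log2 fold changes between -0.97 and -0.79. Closest to Reg2 were Pga5, a pepsinogen gene (0.56), Nr1h4, the bile acid receptor FXR (0.64), and Psmb10, an immunoproteasome subunit (0.74). None of the genes compared came closer to the steep fall of Reg2, whose own course rests on few counts. Genes with a mean under 5 CPM were not compared. Closest to Reg3d were Arhgap26 (0.27), Syt15, a synaptotagmin (0.29), and Mia1 (0.32), with log2 fold changes between -2.15 and -1.70. Closest to Reg3b were Serpina10, a plasma protease inhibitor (0.12), 1810008I18Rik (0.25) and Prox1 itself (0.37), with log2 fold changes between 1.67 and 1.80. The neighbours of Reg3a were Rps7, Mesdc1 and Bola1 (0.23 to 0.28) and those of Reg3g were Zcchc18, Cux2 and Stambpl1 (0.12 to 0.14), and none of these 6 passed the test.

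Genes of the cytokine pathways that act on Reg genes were read from a list of 41, of which 32 were tested. By edgeR 0 of the 32 were called in either direction, against 2.06% of all genes, a share at which less than 1 call would fall in a list of this size. An unadjusted p under 0.05 was reached by 2 of them, against 12.8% of all genes, and DESeq2 called 0, against 2.58%. These 2 were Osmr (log2 fold change 0.49, edgeR adjusted p = 0.346) and Ifngr2 (0.41, 0.204), both higher in mutants. The median log2 fold change of the 32 was 0.02, against 0.00 over all genes tested. The ligands Il22, Il17a and Ifng had 0 counts in all 6 libraries, and Il6 measured 0.101 ± 0.0963 CPM (SD, n = 3) in controls against 0.0317 ± 0.0549 CPM with the transgene, too low to be tested. Osm was at 0.101 ± 0.0963 CPM in controls and higher in mutants, at 0.419 ± 0.144 CPM. Il11 was at 0.525 ± 0.197 CPM in controls and lower in mutants, at 0.0966 ± 0.0951 CPM. The groups did not overlap for Osm or Il11, but both were also too low to be tested. The receptor chains Il6ra (log2 fold change -0.16), Il6st (0.29) and Il22ra1 (-0.17) were measured at 5.85 ± 2.11, 84.5 ± 20.04 and 49.6 ± 3.51 CPM in controls. Stat3, the transcription factor downstream of them, differed by 0.17 on the log2 scale (edgeR adjusted p = 0.638), and Socs3, its feedback inhibitor, by -0.14 (0.903). Extl3, the proposed Reg receptor, was expressed at 91.5 ± 23.2 CPM without the transgene and 79.9 ± 12.9 CPM with it (log2 fold change -0.19, edgeR adjusted p = 0.734).

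Other genes known to rise with pancreatic injury were read from a list of 27 outside the Reg family, of which 21 were tested. By edgeR 1 rose and 0 fell, against 2.06% of all genes called. At an unadjusted edgeR p under 0.05 were 6, against 12.8% of all genes. Of these, Nupr1, Clu (log2 fold change 0.89) and Atf3 (1.25) were higher in mutants, and Hp (-2.05), Spp1 (-0.45) and Tff2 (-0.33) were lower. DESeq2 called 5 of the 21, against 2.58% of all genes, so the count depends on the tool. Higher values in mutants were found for 15 of the 21, with a median log2 fold change of 0.05. The gene called by edgeR was Nupr1, a stress-induced chromatin protein. It went from 273 ± 40.1 CPM (SD, n = 3) to 541 ± 16.6 CPM (log2 fold change 0.99, edgeR adjusted p = 0.00381). Ptf1a itself, heterozygous for the Cre allele throughout, measured 19.8 ± 1.84 CPM without the transgene against 14.9 ± 0.521 CPM with it (log2 fold change -0.40), which missed the threshold (edgeR adjusted p = 0.161).

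Markers of cell types that can make Reg proteins or that accompany their induction were read beside these results, and their part in them was not tested. For comparison with the counts below, edgeR called 2.06% of all genes tested. Of 17 intestinal genes in the files 9 had 0 counts in all 6 libraries, among them the defining genes Cdx1, Cdx2, Sis and Alpi. The intestinal list summed to 37.6 to 55.2 CPM in controls and 10.3 to 20.8 CPM in mutants, with 2 of 3 tested genes lower, namely Vil1, the brush border protein villin (log2 fold change -1.44, edgeR adjusted p = 0.00336), and Itln1, the lectin intelectin-1 (-2.18, 0.0188). The third tested gene, Lyz1, a lysozyme, did not pass (1.29, edgeR adjusted p = 0.664). The call of Itln1 was lost without any 1 control (edgeR adjusted p between 0.0572 and 0.0763) and with a robust dispersion (0.191). Of 3 tested stomach genes, Gkn3 was lower (-3.09, edgeR adjusted p = 0.00439) and Muc6 was higher (2.82, 0.00771), and the list summed to 982 to 1094 CPM in controls and 777 to 863 CPM in mutants. This sum was nearly all Tff2, the third tested gene, at 1018 ± 56.6 CPM (SD, n = 3) in controls and 810 ± 42.2 CPM in mutants. Tff2 did not pass (-0.33, edgeR adjusted p = 0.262). The call of Muc6 was lost without control 2 (edgeR adjusted p = 0.0527) or control 3 (0.0535). Stomach markers Gkn2, Tff1 and Atp4b were at 0 in all libraries.

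Of 18 acinar genes tested, Amy1, an amylase, was higher (log2 fold change 1.02, edgeR adjusted p = 0.00381), and Cel, the bile salt-activated lipase, was lower (-0.93, 0.00881), while 16 did not pass, and the median of the 18 was -0.19. Values were lower in mutants for 13 of the 18. An unadjusted p under 0.05 was reached by 8, against 12.8% of all genes, and DESeq2 called 7, against 2.58%. The call of Cel was lost without control 2 (edgeR adjusted p = 0.0518) or mutant 1 (0.0523). Endocrine genes summed to 3320 to 5382 CPM in controls, the highest in control 1, and to 3390 to 3698 CPM in mutants. The duct list summed to 844 to 944 CPM in controls and 622 to 861 CPM in mutants. By edgeR 0 of 16 endocrine and 0 of 14 duct genes were called. An unadjusted p under 0.05 was reached by 3 and 8, and DESeq2 called 0 and 3, against the same shares of all genes.

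Of 11 macrophage genes, C1qc (0.58, edgeR adjusted p = 0.0419) and Mrc1 (0.53, 0.0419) were higher and C1qa (-0.81, 0.0313) was lower, and the list summed to 250 to 306 CPM in controls and 298 to 443 CPM in mutants, the highest in mutant 2. These macrophage calls lay near the threshold, and each was lost on leaving out mutant 1, mutant 3, control 1 or control 2, where the edgeR adjusted p ran from 0.0741 to 0.187. Those of C1qc and Mrc1 were also lost without control 3 (0.150 and 0.0815), that of C1qc without mutant 2 (0.0670), and that of C1qa with library totals alone (0.0797). At an unadjusted p under 0.05 were 6 of the 11, against 12.8% of all genes, and DESeq2 called 3, against 2.58%. Neutrophil genes summed to 20.2 to 85.6 CPM in controls and 15.7 to 30.7 CPM in mutants. Lymphocyte genes summed to 8.70, 28.7 and 35.0 CPM in controls 1 to 3 and 7.99, 119 and 7.88 CPM in mutants 1 to 3. Mutant 2 thus stood above every control, while mutants 1 and 3 were below every control. Erythroid genes summed to 22.3 to 157 CPM in controls and 15.03 to 37.7 CPM in mutants. Of these 3 lists, with 6, 6 and 3 genes tested, edgeR called 0 genes. An unadjusted p under 0.05 was reached by 3, 0 and 3, and DESeq2 called 1, 0 and 0, against the same shares of all genes. Of 7 adipocyte genes tested 1, the fatty acid carrier Fabp4, was lower (-0.91, edgeR adjusted p = 0.0125), and the list summed to 96.9 to 240.1 CPM in controls and 48.7 to 81.1 CPM in mutants. Lower values in mutants were found for 6 of the 7, with a median log2 fold change of -2.57. An unadjusted p under 0.05 was reached by 5 of the 7, and DESeq2 called 1, again against those shares of all genes. The call of Fabp4 was lost on leaving out mutant 1, mutant 3, control 2 or control 3, where its adjusted p by edgeR ran from 0.0559 to 0.0801, and with library totals alone (0.0545). Without both control 1 and mutant 2, Reg1, Reg2 and Reg3d were lower and Reg3b was higher as before, with log2 fold changes of -0.77, -4.93, -2.07 and 1.80.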

How the data were processed

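RNA from whole pancreas was sequenced in 6 libraries. The authors deposited raw counts per gene symbol, 1 library per file, and the submitters' processing notes name the build mm10 and the tools STAR, DESeq2, HTSeq 0.6.1p1 and cutadapt 1.13 without roles. For the annotation, the strand setting and multi-mapping reads the rule is not given in the sources used here.

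The main test was edgeR 4.0.16 (R 4.3.3), quasi-likelihood, on these counts (TMM scaling, filterByExpr defaults, no covariate), with Benjamini-Hochberg adjustment over 13017 genes and a threshold of 0.05. Each standard error came from the log2 fold change and the root of its F statistic. DESeq2 1.42.0, other scalings, no filter, a robust dispersion, a replicate block and leaving out libraries were alternatives. Ratios of paralogs had 0.5 counts added, and log2 CPM used a prior count of 2. The smallest within-group chi-square per degree of freedom was 5.83, so no libraries were merged. Depth was between 7304727 and 10773223 counts.

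Groups and replicate numbers came from the titles. The members, lists and tests were chosen with earlier results of these data known. Always named were the members, Reg4, Prox1, Ptf1a, Extl3, Il6ra, Il6st, Il22ra1, Stat3 and Socs3, with genes flanking the block, the 3 nearest courses per member, up to 5 called genes of the cytokine and injury lists and up to 3 of each marker list. Other genes were named after their values were seen, namely Il6, Il22, Il17a, Ifng, Xist and the markers at 0. The same holds for Osm, Il11, Osmr, Ifngr2, Clu, Atf3, Hp, Spp1 and Tff2. Krt7, Spp1 and Tff2 of the injury list also stand in marker lists.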

Additional observations from a re-analysis of the deposited data

How the results depend on the processing

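The calls of Reg2, Reg3d and Reg3b held in all 13 alternatives, and that of Reg1 in 7 of 13. Reg3a and Reg3g passed in none. The number of Reg members called was 4 or 3 throughout, and that of cytokine pathway genes 0. The log2 difference of the summed Reg CPM lay between -1.01 and -0.73 in 10 alternatives, and 13 or 14 of the 15 paralog pairs did not overlap in 8 alternatives. Over all genes 268 were called, between 125 and 301 when 1 library was left out (125 without control 2, 139 without mutant 1, 140 without control 3, 178 without mutant 3), and 484 without both control 1 and mutant 2, a setting chosen after seeing the data. In the injury list 1 gene was called, 5 with DESeq2, 2 with library totals alone, 3 with no filter, 3 with a robust dispersion, 2 with the replicate block, between 1 and 3 without 1 library, and 4 without both control 1 and mutant 2. Among the 36 other tested genes named by a fixed rule, the side of the threshold held in 434 of 468 fits, and 33 lost and 1 gained a call. The direction of genes without a call could change. Extl3, for example, had a log2 fold change of -0.19 with all 6 libraries and 0.02 without control 1.

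Replicate numbers are shared between the groups, but deviations of same-numbered libraries correlated at only 0.08, 0.03 and -0.07, and not every library correlated best with its own number, so the numbers do not pair the samples. With the replicate block the log2 fold change of Reg1 was -0.89 (edgeR adjusted p = 0.155), and 241 genes and 3 members were called. The calls of Cel (0.114), C1qc (0.0799) and Mrc1 (0.101) were also lost with it. Genes near 1 CPM, among them Reg3g, and Reg2 in mutants rest on at most 12 counts a library, so their values are limited by counting, while those of Reg1 are limited by the number of libraries.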
